A study of Mus musculus with 4 samples.

Results

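YAP and TAZ are transcriptional coactivators that the Hippo kinase pathway holds in check. The genes described here are 10 of the 22456 genes in the deposited table: Yap1, Wwtr1 (which encodes TAZ), Tead1, Ctgf, Cyr61, Ankrd1, Amotl2, Lats2, Ajuba and Axl. They were chosen by name, as a list of the coactivators, their DNA-binding partner and their target genes, and all 10 were measured and tested. Ctgf and Cyr61 carry the current symbols Ccn2 and Ccn1.

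RNA was sequenced from the fibroblast fraction of mammary tumours in Balb/cAnN mice, collected 8 days after injection of 4T1 mouse mammary carcinoma cells into the fat pad. In the DMSO group the injected cells had been kept in the solvent, and in the GSK group in 5 µM GSK269962A for 5 days, so the label places the compound on the cancer cells and not on the fibroblasts. Each group held 2 libraries, the labels do not say whether these came from separate animals, and p-values then reflect the spread between libraries, which may be technical. The fraction was what remained after cells with CD45, CD31, CD326 or human CD2 had been taken out on magnetic columns, so it holds every mesenchymal cell type that those markers do not remove.

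In the Hippo pathway, the kinases STK3 and STK4 activate LATS1 and LATS2, which phosphorylate YAP and TAZ and keep them out of the nucleus. When that brake is off, YAP and TAZ bind TEAD factors on DNA and switch on genes for matrix-associated growth regulators, the cytoskeleton and the pathway's own inhibitors. Tension of the actin cytoskeleton is known to favour nuclear YAP and TAZ, and in fibroblasts of tumours YAP is known for supporting matrix stiffening. The measurements here are of RNA and hold no information on where the proteins lay or whether they were phosphorylated.

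TEAD factors recognise the word GGAATG, which reads CATTCC on the other strand. The stretches around it are shown because YAP and TAZ bind TEAD factors on DNA. RefSeq start sites (GRCm38.p6) were matched for 8 of the 10 genes, leaving out Tead1 and Ctgf. In the 250 bases before the start, 7 of these 8 held the word on either strand, against 14.4% of the 27025 genes with a start site in the same table. The 7 include Yap1 and Wwtr1, which were listed as coactivators and not as targets. Of 10 other YAP signature targets with a start site, 2 held the word. Each line gives the word in capitals with 12 bases on either side, 5′ to 3′ on the gene's strand.
Yap1: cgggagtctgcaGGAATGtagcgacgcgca
Wwtr1: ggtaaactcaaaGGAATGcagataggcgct
Cyr61: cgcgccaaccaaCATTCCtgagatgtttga
Ankrd1, nearer the start: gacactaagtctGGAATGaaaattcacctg
Ankrd1, farther from the start: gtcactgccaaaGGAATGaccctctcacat
Amotl2: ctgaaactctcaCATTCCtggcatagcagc
Ajuba, nearer the start: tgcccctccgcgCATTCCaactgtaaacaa
Ajuba, farther from the start: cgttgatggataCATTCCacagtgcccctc
Axl: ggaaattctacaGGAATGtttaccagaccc

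The word began 141 bases before the start in Yap1 (chr9:8004720-8004749 for the stretch shown, minus strand), 136 in Wwtr1 (chr3:57576029-57576058, minus) and 103 in Cyr61 (chr3:145650071-145650100, minus). In Ankrd1 the words began 123 and 210 bases before it (chr19:36119950-36119979 and chr19:36120037-36120066, minus), and in Ajuba 164 and 186 (chr14:54577808-54577837 and chr14:54577830-54577859, minus). In Amotl2 it began 65 bases before the start (chr9:102717727-102717756, plus) and in Axl 233 (chr7:25788949-25788978, minus). GENCODE M21 places the stretches of Ankrd1 and Amotl2 within an exon of longer models of those genes and the others outside any gene. Lats2 held no such word in either of its windows, which GENCODE M21 places within introns of Lats2. The bases before the 5′ end of its GENCODE model were not searched. The word for the factor AP-1, TGANTCA on both strands, was found in 0 of the 8 genes and in 7.82% of all genes, and the CArG box of SRF, searched on both strands, in 0 of the 8 and in 1.62%. None of these words overlapped. A match is a description of the sequence, and binding was not measured.

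The promoter of Cyr61 is given whole because Cyr61 stood highest per length of the 10 genes. These 250 bases (chr3:145649986-145650235, minus strand) end at the base before the start site, lie outside the genes of GENCODE M21, and carry the TEAD word in capitals.
Cyr61 promoter: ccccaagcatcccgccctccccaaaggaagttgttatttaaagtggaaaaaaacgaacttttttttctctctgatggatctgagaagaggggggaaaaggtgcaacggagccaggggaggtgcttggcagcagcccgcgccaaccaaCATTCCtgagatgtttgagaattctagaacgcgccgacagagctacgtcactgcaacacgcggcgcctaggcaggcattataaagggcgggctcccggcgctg

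The deposited table gives log2 expression, normalised by the authors, from -1.035 to 20.58 with library medians of 6.15 to 6.16, and without read counts the depth is unknown. Values of weak genes lie close together (median range over the 4 libraries 0.0178 for the 7908 genes below the filter and 0.113 for the genes tested), so a difference may be understated, most in weak genes. The fibroblast label fitted the markers: Col1a1 was highest at 20.51, while Ptprc (leukocytes) averaged 3.81, Pecam1 (endothelium) 3.31, Epcam (epithelium and 4T1) 0.32 and Ckm (skeletal muscle, where Ankrd1 is also known) 0.60. Single members of the removed types stood higher, with Cd53 at 11.03, Krt19 at 8.82 and Tek at 7.64, as did the adipocyte gene Fabp4 at 9.57. Pericyte and smooth muscle genes ranged from Higd1b at 4.39 to Pdgfrb at 14.03, which stood near the fibroblast marker Pdgfra at 13.41. Whether the Pdgfrb RNA came from pericytes or from fibroblasts was not tested. The isolation did not target pericytes or smooth muscle cells.

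All 10 genes were expressed in this fraction. Levels of different genes are compared here per kilobase of exon, as log2 expression minus the log2 of the gene's summed exon length in GENCODE M21, averaged over the 4 libraries. The secreted CCN proteins led, with Cyr61 at 13.75 and Ctgf at 13.37, above 99.6% and 99.4% of the 14548 genes tested. Axl, a receptor tyrosine kinase, followed at 11.25. The angiomotin-like scaffold gene Amotl2 was at 9.10 and Wwtr1 at 8.95. Below them lay Yap1 at 8.30, Lats2 at 8.21 and Tead1 at 8.14. Ankrd1 at 7.71 and Ajuba at 7.44 were lowest, above 72.9% and 68.6% of the genes tested.

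**Figure D1:**
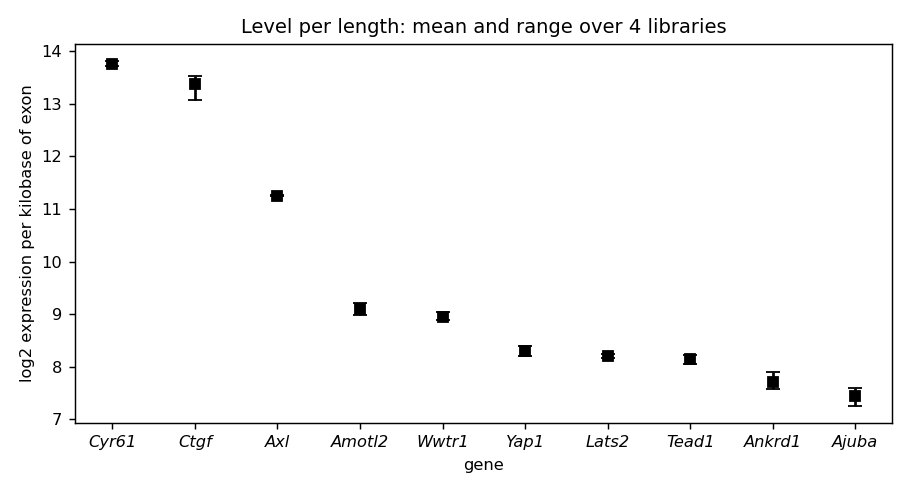
Log2 expression per kilobase of exon for the 10 genes (x axis), with the mean over 4 libraries as a square and the lowest and highest library as bars. Cyr61 and Ctgf stand above 13, Axl at 11.25, and the other 7 genes between 7.44 and 9.10.

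The order of the top 3 was the same in every library, since Cyr61 ran from 13.71 to 13.81, Ctgf from 13.08 to 13.53 and Axl from 11.24 to 11.27. Neighbours further down did not all separate. Amotl2 (8.99 to 9.21) overlapped Wwtr1 (8.88 to 9.04) over the 4 libraries. Yap1 (8.21 to 8.39), Lats2 (8.16 to 8.25) and Tead1 (8.06 to 8.22) overlapped as neighbours, and so did Ankrd1 (7.57 to 7.90) and Ajuba (7.26 to 7.59). Per kilobase, TAZ RNA was above YAP RNA by 0.65, a value that rests on exon lengths of 4779 and 9257 bases. Without the length correction Yap1 stood above Wwtr1 in every library, by 0.22 to 0.39 on the log2 scale. The order of these genes thus depends on the lengths used.

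The comparison of GSK with DMSO asks whether the fibroblast fraction differs when the cancer cells had been pre-treated with the compound. For the YAP and TAZ genes the estimates ran from -0.26 to 0.33 on the log2 scale, and not in one direction. Ctgf was 1.26-fold higher in GSK by its estimate and Yap1 1.12-fold higher, while Ankrd1 was 1.19-fold and Amotl2 1.11-fold lower. Cyr61 differed by -0.04 and Axl by 0.01 on the log2 scale. In limma's test, adjusted by Benjamini-Hochberg over all 14548 genes, 0 of the 10 passed the threshold of 0.05, where 0.282% of all genes tested did, 0.151% higher and 0.131% lower. The smallest adjusted p was 0.101, that of Ankrd1. This fit used the group only. With the replicate number as a block, 4 of the 10 passed, as did 1374 of the 14548 genes, though the labels do not say that these numbers pair samples.

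At an unadjusted p under 0.05 stood 4 of the 10, Yap1 and Ctgf higher and Ankrd1 and Amotl2 lower in GSK, against 16.0% of all genes tested, 7.88% higher and 8.13% lower. The groups did not overlap in 6 of the 10, with GSK higher in 4 and lower in 2, against 48.6% of all genes tested, 24.1% higher and 24.5% lower. The estimate was positive for 7 and negative for 3. The median change of the 10 was 0.059 on the log2 scale, beside -0.001 over all genes tested, and their median change in size was 0.116 beside 0.049.

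**Figure D2:**
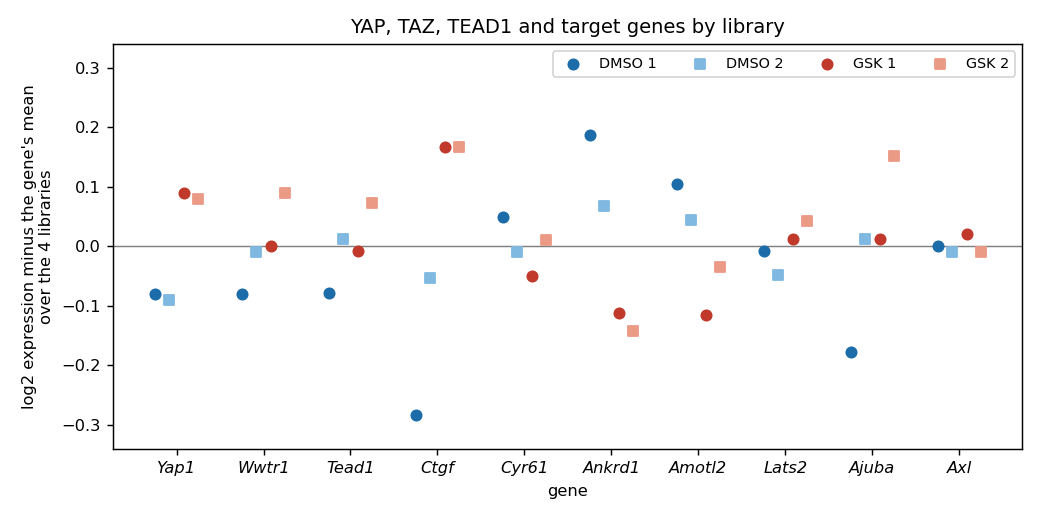
Log2 expression of each gene in each library after subtracting that gene's mean over the 4 libraries (y axis), with DMSO in blue and GSK in red and circles and squares for libraries 1 and 2. Yap1 shows tight groups 0.17 apart, Ctgf has its lowest value in DMSO library 1, and the groups of Tead1, Cyr61, Ajuba and Axl overlap or touch.

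Yap1, the coactivator itself (ENSMUSG00000053110, GRCm38 chromosome 9, 7931999 to 8004596, minus strand), was at 11.43 and 11.42 (log2) in DMSO libraries 1 and 2 and at 11.60 and 11.59 in GSK libraries 1 and 2. Both GSK libraries were higher, and the libraries of a group lay closer together than those of all but 2.6% of genes tested. The change was 0.17 ± 0.042 (SE, n = 2 per group), with a 95% interval of 0.06 to 0.27 and a limma adjusted p of 0.141. On the linear scale that is 12.1% more RNA, with an interval of 4.55% to 20.3%. Leaving out any 1 library left the estimate between 0.159 and 0.171.

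Wwtr1, which encodes the paralogous coactivator TAZ (chromosome 3, 57455649 to 57575910), was at 11.13 and 11.20 in DMSO and 11.21 and 11.30 in GSK. Its groups just failed to overlap, by a gap far smaller than the spread within either. The change was 0.08 ± 0.052 (95% interval -0.04 to 0.21, limma adjusted p = 0.469). Tead1, the DNA-binding partner (chromosome 7, 112679318 to 112906807), was at 11.83 and 11.92 in DMSO and 11.90 and 11.98 in GSK, so the groups overlapped. Its change was 0.07 ± 0.055 (interval -0.07 to 0.20, limma adjusted p = 0.603). On the linear scale the intervals ran from -2.77% to 15.7% for Wwtr1 and from -4.60% to 14.9% for Tead1.

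The 2 secreted CCN genes are the targets most often used to read out YAP activity, and neither passed the test. Ctgf, connective tissue growth factor (ENSMUSG00000019997, chromosome 10, 24595442 to 24598683), was at 14.60 and 14.83 in DMSO and 15.05 and 15.05 in GSK. The GSK libraries were alike and both higher, and DMSO library 1 was the lowest. The change was 0.33 ± 0.092 (95% interval 0.11 to 0.56, limma adjusted p = 0.161), larger in size than that of 97.7% of genes tested. Without DMSO library 1 it was 0.218.

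Cyr61, a matrix-associated ligand of integrins (ENSMUSG00000028195, chromosome 3, 145646976 to 145649981), was at 14.82 and 14.76 in DMSO and 14.72 and 14.78 in GSK. These values interleave. The change was -0.04 ± 0.067 (95% interval -0.20 to 0.12, limma adjusted p = 0.807), which is an interval of -13.1% to 8.78% on the linear scale. Ctgf minus Cyr61 within each library, which no scaling between libraries can move, was -0.22 and 0.08 in DMSO and 0.33 and 0.27 in GSK. That difference was higher in both GSK libraries than in either DMSO library, by 0.38 on average, a difference that was not tested.

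Ankrd1, a nuclear ankyrin repeat protein best known from stressed muscle (ENSMUSG00000024803, chromosome 19, 36111961 to 36120099), was at 9.43 and 9.31 in DMSO and 9.13 and 9.10 in GSK. Both GSK libraries were lower than both DMSO libraries. The change was -0.26 ± 0.053 (95% interval -0.38 to -0.13, limma adjusted p = 0.101), larger in size than that of 95.5% of genes tested. It was between -0.312 and -0.198 when any 1 library was left out. Ctgf minus Ankrd1 ran from 5.17 and 5.52 in DMSO to 5.92 and 5.95 in GSK, an average difference of 0.59 on the log2 scale that was not tested. These genes had the highest and the lowest change of the 10, so this difference follows from those changes and adds nothing to them.

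Amotl2 and Lats2 are inhibitors that YAP switches on as feedback, and neither passed the test. Amotl2, whose product binds YAP and holds it at cell junctions (chromosome 9, 102716672 to 102733418), was at 11.86 and 11.80 in DMSO and 11.64 and 11.72 in GSK, with both GSK libraries lower. Its change was -0.15 ± 0.052 (95% interval -0.27 to -0.02, limma adjusted p = 0.246). Lats2, the kinase that phosphorylates YAP and TAZ (chromosome 14, 57689662 to 57758388), was at 11.00 and 10.96 in DMSO and 11.02 and 11.05 in GSK. Its groups did not overlap, though the change was 0.05 ± 0.043 (interval -0.05 to 0.16, limma adjusted p = 0.596). Lats2 shares 2956 identical bases with the read-through gene Gm49361, which has no value of its own in the deposited data. Whether reads of Lats2 were lost to it in counting is unknown, so the value of Lats2 is uncertain.

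Ajuba, a LIM-domain protein that binds LATS kinases (chromosome 14, 54567472 to 54577558), was at 9.13 and 9.32 in DMSO and 9.32 and 9.46 in GSK. DMSO library 1 was low, DMSO library 2 and GSK library 1 were alike, and the groups overlapped by less than the rounding of these values. The change was 0.17 ± 0.078 (95% interval -0.02 to 0.36, limma adjusted p = 0.368), and 0.072 without DMSO library 1. Axl, the receptor for the ligand Gas6 (chromosome 7, 25757273 to 25788705), was the steadiest of the 10, at 13.58 and 13.57 in DMSO and 13.60 and 13.57 in GSK. Its change was 0.01 ± 0.052 (interval -0.12 to 0.14, limma adjusted p = 0.948), an interval of -7.80% to 9.90% on the linear scale.

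**Figure D3:**
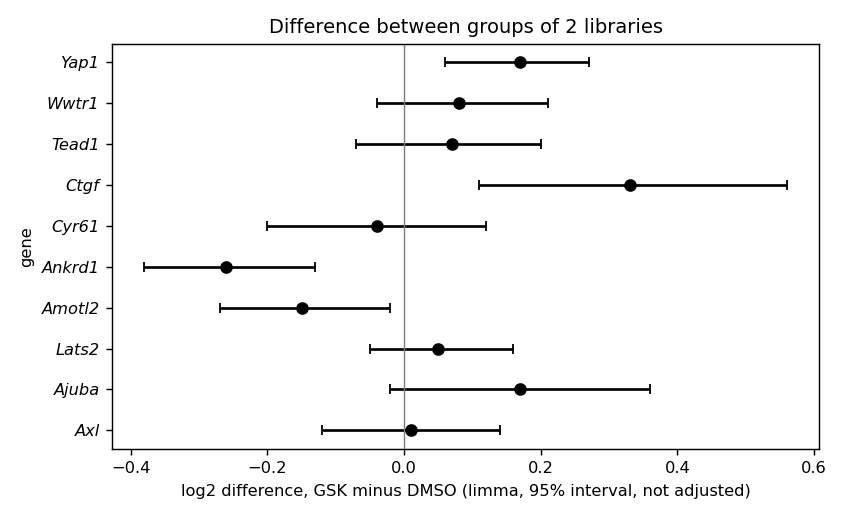
Change of each gene between groups of 2 libraries (x axis, log2, GSK minus DMSO) as a point with limma's 95% interval, not adjusted for the number of genes. The intervals of Yap1 and Ctgf lie above 0, those of Ankrd1 and Amotl2 below it, and the other 6 include it.

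Other transcripts overlap some of these genes. Ctgf shares 347 bases with Gm15270 on the opposite strand, which was at 6.49 beside 14.88 for Ctgf. Yap1, Wwtr1, Tead1 and Lats2 also have annotated genes on the opposite strand, whose own values ran from -0.99 to 4.22. No source states whether reads were counted by strand.

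The rest of the pathway was described from lists, adjusted over all genes tested. Among the Hippo kinases and their scaffolds, 0 of 15 tested passed the threshold, with a median change of 0.058. Tnik, a germinal-centre kinase related to MAP4K4, was at 8.27 and 8.37 in DMSO and 8.54 and 8.62 in GSK (change 0.26 ± 0.058, limma adjusted p = 0.115). Stk38l, an NDR kinase of the LATS family, was at 0.19 ± 0.069 and its paralogue Stk38 at -0.09 ± 0.050. Of the TEAD and VGLL cofactors 0 of 5 tested passed. Vgll4, which competes with YAP for TEAD, was at 0.12 ± 0.047, Tead3 at 0.12 ± 0.055 and Vgll3 at -0.10 ± 0.050.

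Membrane and junction regulators of YAP mostly had positive estimates. Of 16, 0 passed, 15 were positive and the median was 0.087. GSK was higher without overlap in 8 of the 16, against 24.1% of all genes tested. The atypical cadherin gene Fat4, a candidate upstream receptor of the pathway in mammals, was at 8.70 and 8.81 in DMSO and 9.10 and 9.19 in GSK. Both GSK libraries were higher, and the change of 0.39 ± 0.056 (1.31-fold) had a limma adjusted p of 0.0576. Its relative Fat1 was at 12.87 and 13.02 in DMSO and 13.17 and 13.33 in GSK (change 0.31 ± 0.077, limma adjusted p = 0.140). Amotl1, the paralogue of Amotl2, was at 0.16 ± 0.059, opposite in sign to Amotl2 (limma adjusted p = 0.263).

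Further targets of a published YAP signature, other than the 10, spread to both sides. Of 16 tested, 0 passed, 13 estimates were positive and 3 negative, the changes ran from -0.59 to 0.43 and the median was 0.131. The RNA-binding protein gene Rbms3 was at 11.25 and 11.24 in DMSO and 11.50 and 11.53 in GSK (change 0.27 ± 0.042, limma adjusted p = 0.0584). F3, the coagulation initiator tissue factor, went the other way, at 10.80 and 10.55 in DMSO and 10.19 and 9.98 in GSK (change -0.59 ± 0.101, limma adjusted p = 0.0703). Gadd45a, a stress-induced growth arrest gene, was at -0.23 ± 0.058. In 12 of these 16 the groups did not overlap, 9 higher and 3 lower, against 24.1% and 24.5% of all genes tested. The TEAD word lay before the start of 2 of the 10 with a RefSeq promoter, Crim1 and Ptpn14.

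**Figure D4:**
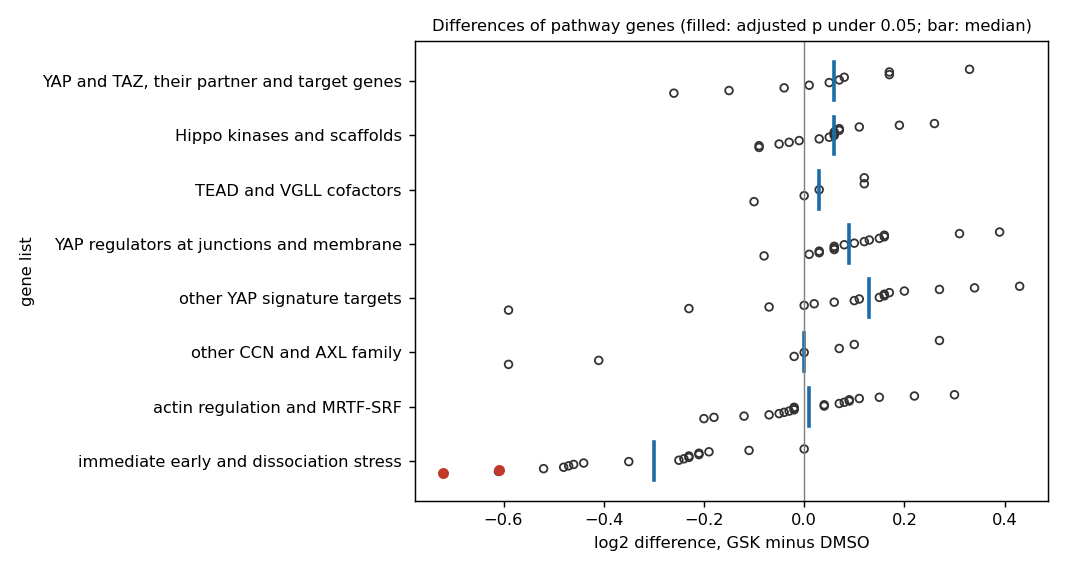
Change of every tested gene (x axis, log2, GSK minus DMSO) in the YAP and TAZ list and 7 related lists (y axis), with a bar at each list's median and filled points for an adjusted p under 0.05. Filled points appear in the early and stress genes only, at -0.72 and -0.61, and the 10 YAP and TAZ genes run from -0.26 to 0.33.

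Other CCN family members did not follow Ctgf as a group. Of the 7 tested genes of the CCN and AXL families, 0 passed. Wisp2 (Ccn5), a CCN protein without the C-terminal domain, was at 11.99 and 12.03 in DMSO and 11.64 and 11.56 in GSK, and its change of -0.41 ± 0.049 had a limma adjusted p of 0.0504. Nov (Ccn3) was at 10.37 and 9.89 in DMSO and 9.51 and 9.57 in GSK (change -0.59 ± 0.142, limma adjusted p = 0.135). Wisp1 (Ccn4) was at 0.27 ± 0.070, on the same side as Ctgf (limma adjusted p = 0.150). Estimates within the family thus had both signs, with Ctgf and Ccn4 positive, Ccn3 and Ccn5 negative and Cyr61 near 0.

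Among 20 genes of actin regulation and the actin-sensing factors MRTF and SRF, 0 passed, 10 estimates were positive and 10 negative, and the median was 0.014. The formin genes Diaph3 and Diaph1, which nucleate actin filaments, were at -0.20 ± 0.057 and -0.12 ± 0.042, and Limk2, the kinase that inactivates cofilin, at 0.22 ± 0.075.

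Summed levels of other lists differed between the libraries alongside some of these genes. The 10 pericyte and smooth muscle markers, summed on the linear scale, were at 14.85 and 15.08 (log2) in DMSO and 15.24 and 15.29 in GSK. DMSO library 1 had the lowest sum, as for Ctgf, and Pdgfrb made up much of it. The groups did not overlap for 8 of the 10 markers, 6 higher and 2 lower in GSK, against 48.6% of all genes tested, 24.1% higher and 24.5% lower. The 2 lower were the channel genes Kcnj8, at 8.42 and 8.55 in DMSO and 8.21 and 8.33 in GSK, and Abcc9, at 10.40 and 10.49 in DMSO and 10.27 and 10.39 in GSK, so the markers did not all follow the sum. The lowest marker, Higd1b, was at 4.39, and 0 of the 10 passed the test. The part of these cells in the Ctgf difference was not tested. The 10 fibroblast markers summed to 21.70 and 21.69 in DMSO and 21.57 and 21.66 in GSK. Nearly all of this sum came from Col1a1, Col3a1 and Col1a2, so it says little about the other markers. Without overlap, 4 of the 10 were lower in GSK and 1 higher, and 0 passed the test. The 4 were Dpt (-0.35, limma adjusted p = 0.0603), Pdpn (-0.37), Dcn (-0.31) and Col3a1 (-0.30), and their part in the differences of the YAP and TAZ genes was not tested either. In a fraction of mixed cells, fewer cells of a type and less RNA per cell cannot be told apart.

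Early response and dissociation stress genes are a class to which Cyr61 and Ctgf are also assigned. Summed, the 18 listed were at 18.21 and 18.10 in DMSO and 17.92 and 17.68 in GSK. In 16 of them GSK was lower without overlap, against 24.5% of all genes tested, and 2 passed the test. The heat shock genes Hspa1b and Hspa1a fell, by 0.72 and 0.61 on the log2 scale (limma adjusted p = 0.0366 and 0.0460), though they are near-identical copies and neither passed without DMSO library 1 or without GSK library 2. The orphan nuclear receptor gene Nr4a1 was at -0.44 ± 0.058 (limma adjusted p = 0.0546). Ankrd1 and Amotl2 were lower in GSK beside them, while Ctgf was higher and Cyr61 interleaved, and the part of the early response in Ankrd1 and Amotl2 was not tested. Skeletal muscle markers summed to 10.15 and 10.39 in DMSO and 10.40 and 10.38 in GSK, nearly all from Des, which pericytes share. The epithelial and 4T1 markers summed to 9.12 and 9.06 in DMSO and 8.92 and 8.72 in GSK, mostly from Krt19, with Epcam near 0. The leukocyte markers summed to 11.33 and 11.08 in DMSO and 12.09 and 11.54 in GSK, mostly from Cd53. Cd53 was at 10.70 and 10.46 in DMSO and 11.81 and 11.15 in GSK (change 0.91, limma adjusted p = 0.116). Ptprc was at 3.77 and 3.77 in DMSO and 3.91 and 3.77 in GSK. Cd3e and Csf1r went the other way, with changes of -0.3 and -0.12 (limma adjusted p = 0.361 and 0.452). Of the 7 leukocyte markers tested, 4 estimates were positive and 3 negative, so the markers did not all follow the sum. The part of these cells in the differences of the YAP and TAZ genes was not tested.

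**Figure D5:**
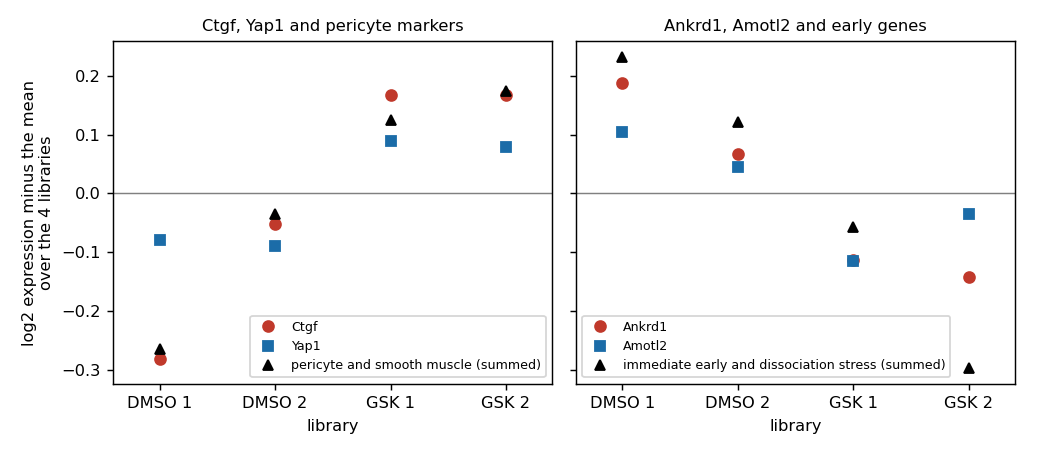
Log2 expression minus the mean over the 4 libraries (y axis) in each library (x axis) for Ctgf and Yap1 with the summed pericyte and smooth muscle markers (left) and for Ankrd1 and Amotl2 with the summed early and stress genes (right). DMSO library 1 is lowest for Ctgf and the pericyte sum and highest for Ankrd1, Amotl2 and the early gene sum.

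The genes whose 4 library values most resembled those of Yap1, Ctgf and Cyr61 were found by the root mean square distance between values centred on each gene's mean, among 11036 genes. Over only 4 libraries many genes share any one shape, so these are descriptions. Ctgf was nearest to Rem1 (distance 0.0141), the myosin light chain kinase gene Mylk (0.0204), the netrin gene Ntn4 (0.0211) and Tgfb1 (0.0286), the growth factor known to induce Ctgf. Tgfb1 was at 12.21 and 12.39 in DMSO and 12.60 and 12.59 in GSK, lowest in DMSO library 1 like Ctgf. Among the genes nearest to Yap1 were Olfm1 (0.0072), Rab21 (0.0075) and N4bp1 (0.0075). Cyr61 was nearest to Arfgap3 (0.0027), Setd2 (0.0032), Trp53bp1 (0.0042) and Stx16 (0.0050), whose values differed between libraries as little as its own.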

How the data were processed

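RNA was sequenced from 4 libraries, 2 of the DMSO and 2 of the GSK group. The values deposited by the authors are on a log2 scale and normalised. Per the submitters' processing notes, the tools were Bowtie2, RSEM (1.2.29) and DESeq2 (1.12.4), and the genome builds GRCh38 and mm10, with no step named for each. Transformation and annotation release are not given in the sources used here. No sample column was left unused, and 22357 of 22456 identifiers matched GENCODE M21 (GRCm38, mm10). No gene had equal values in both libraries of a group.

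The 14548 genes whose mean reached log2 of 10 (3.32) were tested with limma 3.58.1 in R 4.3.3: group only, variance prior following the mean, two-sided, no pseudocount, Benjamini-Hochberg threshold 0.05. SE is limma's moderated standard error. On simulated data for GSK against DMSO with 14548 genes, true changes of 0.25, 0.5 and 1 (log2) were recovered in 24.5%, 90.8% and 99.4% of cases. The simulation drew independent noise with spreads from limma's own prior. It held no variation shared between libraries and no compression of values, so recovery in the real data may differ. Copies were sought with blastn 2.17.0 (at least 98% identity over 200 bases). TEAD, AP-1 and SRF words were searched in RefSeq promoters.

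The 10 genes and the lists were chosen with earlier results of these data known. The rule for named genes gave every member, each other list's called genes or its 3 smallest p, each marker list's highest and first gene, and the 4 nearest genes to Yap1, Ctgf and Cyr61. Fabp4, Tek, Higd1b, Kcnj8, Abcc9, Dpt, Pdpn, Dcn, Col3a1, Des, Crim1, Ptpn14 and Gm15270 were named outside it, and some genes it gave are not reported here. Alternatives were filters, quantile normalisation, median centring, other variance priors, the replicate number as a block, and each library left out.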

Additional observations from a re-analysis of the deposited data

How the results depend on the processing

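The 10 genes kept 0 calls in limma under 10 of 11 alternatives. Of 110 results for single genes under these alternatives, 105 kept their direction and their side of the threshold, 4 passed it and 1 changed sign. The sign change was that of Axl, whose change ran from -0.006 to 0.025 with 1 library left out. Replicate numbers are shared between the groups, but nothing in the labels says that they pair samples. The deviations of DMSO library 1 and GSK library 1 from their group means correlated at 0.428 across the 14548 genes, which are not independent. With the replicate number as a block, 4 of the 10 genes passed, Yap1 (adjusted p = 0.0249), Ctgf (0.0190), Ankrd1 (0.00926) and Ajuba (0.0380), as did 29 pathway list genes and 1374 of all genes. The number of all genes called was 41 in the model with group only, 1 with no filter, 23 after quantile normalisation, 126 after median centring, 11 with no trend in the variance prior and 138 with a robust prior, and 7 to 194 with 1 library left out. The number of pathway list genes called was 2 with group only, 0 with no filter or no trend, 1 when means of at least 50 were required, 5 after median centring or with a robust prior, and 0 to 8 with 1 library left out. The median change of the 10 genes lay between 0.031 and 0.087 with 1 library left out. The cause of these shifts was not tested. Leaving out 1 library leaves a group with 1, which is assumed to vary like the other group. Depth is unknown.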
